A study of Danio rerio with 3 samples.

Results

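Blood cells of the zebrafish larva were described from the tables that the authors made for their blood cluster, 1 pair per library, in which each gene has a read count, a rate for each type of base substitution and a count of labelled entries. The blood tables held 16894 genes in the FACS-and-ice library, 13466 in the FACS library and 14938 in the dissociation library, against 23910, 22024 and 23437 genes over all cell types of the same libraries. A gene entered the comparisons with at least 250 blood reads, which left 1974, 1666 and 1456 genes in the same order, and entries whose name combines more than 1 gene were not used.

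Each library came from 10 wild-type larvae at 48 h post fertilization that were pooled. Their tissue was taken apart at 37°C over 30 min with 10 mM 4-thiouridine (4sU) present, a uridine analog that marks RNA made after it is added. In the FACS-and-ice library the cells were then sorted for 10 min and held on ice for 30 min. In the FACS library they were sorted without this final hold, and in the dissociation library they went straight into fixation. Both sorted samples were also kept on ice while the sort was set up, and were washed after it. During the sort the medium held no 4sU, but the cooled receiving tube did. Cells of all 3 libraries were fixed in methanol and treated with 10 mM iodoacetamide for 16 h, which alkylates 4sU. There was 1 library per group, so no difference between libraries has a replicate check, no test was run, and intervals cover counting error only; fewer cells of a type and less RNA per cell cannot be told apart in these tables.

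At 48 h post fertilization the circulating blood of a zebrafish larva is made up largely of primitive red cells, which fill with embryonic haemoglobin while they make haem, take up iron and build a specialised membrane. In fish the red cell keeps its nucleus, and so keeps a template for transcription. Haem is made in a chain of enzymes that starts with Alas2 and ends with the insertion of iron by ferrochelatase.

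The label of the cluster was checked against 6 markers (hbae3, hbbe1.1, alas2, hemgn, cahz and slc4a1a). All 6 reached 250 reads in every library, and their level in blood over that in the 11 other cell types found in all 3 libraries had a median of 145 in the FACS-and-ice library, 130 in the FACS library and 256 in the dissociation library. Levels are reads per 1000000 blood reads (RPM), with haemoglobin genes and joined names taken out of the total, because haemoglobin would otherwise set the scale. The cluster was drawn from the expression of these cells, so its distance from other clusters is a description and no test. Markers of macrophages (6 measured genes), endothelium (6), progenitors (1) and pigment cells (3) all stayed below 250 reads in the blood tables, with summed levels of at most 18.3, 12.9, 1.51 and 111 RPM. Of the 5 neutrophil and mast cell markers, 1 reached 250 reads, in the dissociation library, and their sum was 37.6, 17.6 and 105 RPM in the FACS-and-ice, FACS and dissociation libraries.

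Haemoglobin took 74.6% of all blood reads in the FACS-and-ice library, 83.0% in the FACS library and 80.6% in the dissociation library. In the 11 other cell types it took between 0.676% and 8.20%, between 0.329% and 11.6%, and between 0.893% and 7.21% of reads in the same libraries. Blood therefore lay far above every other cell type in all 3 libraries.

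Among the alpha-type chains, hbae1 took 15.3%, 16.9% and 16.6% of blood reads in the FACS-and-ice, FACS and dissociation libraries. The alpha chain hbae3 took 13.9%, 16.0% and 15.3%, and hbae1.3 took 10.2%, 11.6% and 10.6%. These 3 genes carried nearly all alpha-type reads, while hbae5 held 0.0219%, 0.0215% and 0.0220%. The beta-type gene with the most reads was AL935210.1, which the reference pairs with the name HBE1 as it does other beta-like globins, with 16.3%, 19.6% and 19.4% of blood reads. The beta chains hbbe1.2 and hbbe1.1 followed with 9.11%, 9.77% and 9.74%, and with 6.39%, 6.12% and 6.33%.

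Embryonic alpha-type reads stood at 1.12, 1.16 and 1.12 times the beta-type reads in the FACS-and-ice, FACS and dissociation libraries, so the balance of the chains was close between libraries. In UMIs, which count molecules, the alpha share of the embryonic chains was 46.6%, 48.3% and 48.1% in cells rich in haemoglobin. The adult-type genes hbaa1, hbaa2, hbba1 and hbba2 together had 74, 136 and 23 blood reads. The embryonic beta chain hbbe3 had 2.52% of blood reads in the FACS-and-ice library, 2.02% in the FACS library and 1.68% in the dissociation library.

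**Figure D1:**
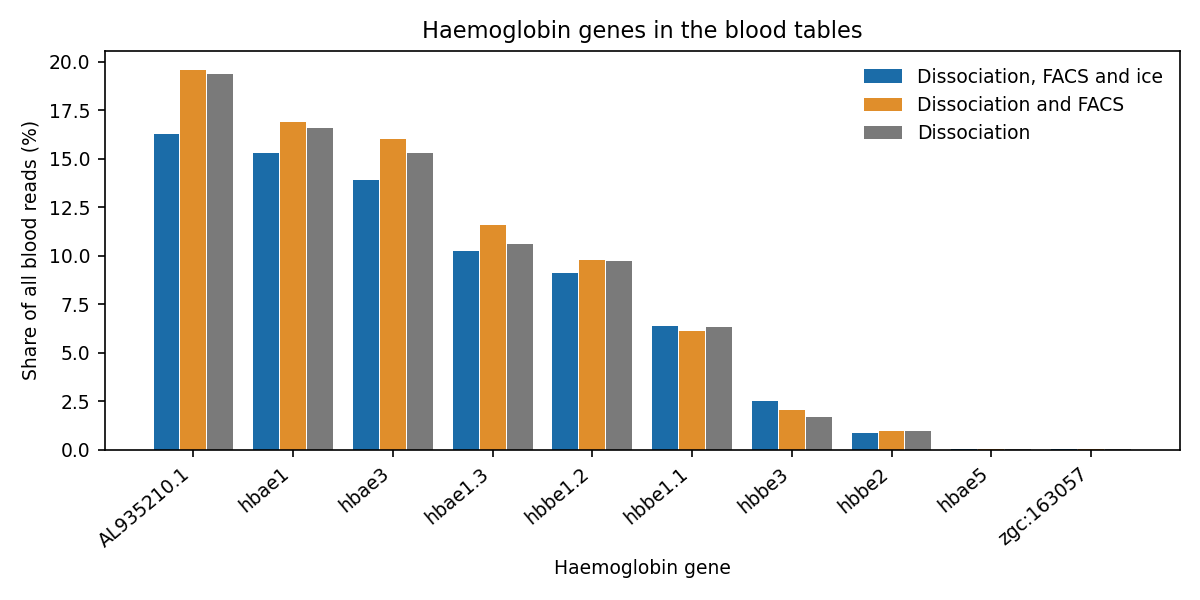
Share of all blood reads (%) taken by each haemoglobin gene with at least 250 reads, 1 bar per library. AL935210.1 and hbae1 hold between 15.3% and 19.6% in every library, and hbbe3 is highest in the FACS-and-ice library at 2.52%.

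In all, 66 of the 1288 genes that reached 250 blood reads in all 3 libraries stood at least 4-fold above the other cell types in each of them, or 5.12%, and 56 of these were not haemoglobin genes. This share rests on the same cells that defined the cluster and is given as a description. Ranked by their lowest ratio over the 3 libraries, the leading genes were si:ch211-250g4.3 (201, 207 and 203 times the other cell types in the FACS-and-ice, FACS and dissociation libraries), hif1al2, hbbe3, rfesd, alas2 and hemgn. Also among the leading 15 were gp9, nmt1b, slc4a1a and 6 more haemoglobin genes.

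The haem synthesis list has 19 genes in the tables, and those with enough reads were all high in blood. All 10, 11 and 6 genes of the haem synthesis list that reached 250 reads in the FACS-and-ice, FACS and dissociation libraries lay at least 4-fold above the other cell types. Their median ratio was 24.6, 27.2 and 21.3. The first enzyme, alas2, had a level of 549, 871 and 664 RPM, or 147, 156 and 251 times the other cell types.

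The next enzymes stood less far above the other cell types than alas2. The level of alad, which joins aminolevulinate into a ring, was 12.9, 17.1 and 12.3 times that of the other cell types, and that of hmbsb was 35.7, 30.8 and 27.8 times. The gene blvrb, a biliverdin reductase, stood at 87.3, 89.8 and 100.4 times. The mitochondrial porphyrin carrier gene tmem14ca stood at 12.4, 18.4 and 14.4 times.

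Iron handling was led by fth1a, a ferritin heavy chain that stores iron, with 4984, 7240 and 7061 RPM in the FACS-and-ice, FACS and dissociation libraries. This was 10.7, 15.07 and 16.6 times the level in the other cell types. The iron importer slc11a2 stood at 6.40, 7.50 and 9.17 times, whereas the ferritin-like gene zgc:92066 was only 1.87, 2.14 and 2.67 times as high.

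Membrane genes showed a wide range. The anion exchanger slc4a1a, known as band 3 in mammals, had 642, 1065 and 818 RPM in the FACS-and-ice, FACS and dissociation libraries, or 165, 134 and 267 times the other cell types. The skeleton genes sptb (a spectrin) and epb41b (protein 4.1) stood at 79.1, 90.3 and 41.7 times and at 172, 91.2 and 405 times. The Rh-family gene rhd stood at 118, 368 and 260 times. In contrast, its partner rhag stood at only 2.69, 3.11 and 3.85 times the other cell types, and epb41a was below them at 0.889, 0.554 and 0.485 times, the last from 120 reads.

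Of the genes for gas exchange and protection from oxidation, the carbonic anhydrase cahz reached 1796, 2552 and 1992 RPM, or 119, 103 and 134 times the other cell types. The peroxide-removing gene prdx2 had the most reads of the list, at 6037, 9099 and 9563 RPM, yet only 8.29, 11.8 and 12.6 times the other cell types. The iron-sulphur cluster gene glrx5 stood at 7.17, 11.9 and 7.83 times. These broadly used genes therefore marked blood less sharply than cahz. The list was not uniformly high in blood. It had 7 genes with 250 reads in each library, of which 4 stood at least 4-fold above the other cell types in each. Its lowest ratio was 1.997 in the FACS library, 0.618 in the dissociation library and lower still in the FACS-and-ice library.

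Among nuclear factors, hemgn was one of the sharpest marks of blood, while the list as a whole was mixed. The level of gata1a, the master factor of the red lineage, was 65.5, 84.1 and 43.9 RPM, from 522, 661 and 242 reads, the last of which is under the minimum. That of hemgn was 1487, 2345 and 2111 RPM, or 157, 145 and 246 times the other cell types. The factor lmo2, which works in a complex with Gata1, stood at 9.74, 19.6 and 18.5 times. The list of nuclear factors had 7, 8 and 3 genes with 250 reads in the FACS-and-ice, FACS and dissociation libraries. Of these, 4, 7 and 3 stood at least 4-fold above the other cell types, and the lowest ratios were 0.804, 1.40 and 18.5. In a list of maturation genes, 1 of 4 with 250 reads stood 4-fold above them in each library, with median ratios of 1.15, 1.43 and 1.97.

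The genes gp1bb and gp9, which encode platelet glycoproteins in mammals, were also found in the blood tables. Of the 2 thrombocyte markers measured, gp1bb alone reached 250 reads. The 2 markers summed to 58.3, 68.1 and 63.3 RPM in the FACS-and-ice, FACS and dissociation libraries. The gene gp9 was not on that marker list and is named for its ratio over the other cell types. The level of gp1bb was 40.02, 62.0 and 59.6 RPM in the FACS-and-ice, FACS and dissociation libraries, or 69.6, 173 and 145 times the other cell types. That of gp9 was 74.5, 86.9 and 135 RPM. In cells rich in haemoglobin, gp1bb was detected in 12.5%, 17.0% and 12.0% of cells, against 0.300%, 0.256% and 0.246% of the remaining cells.

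**Figure D2:**
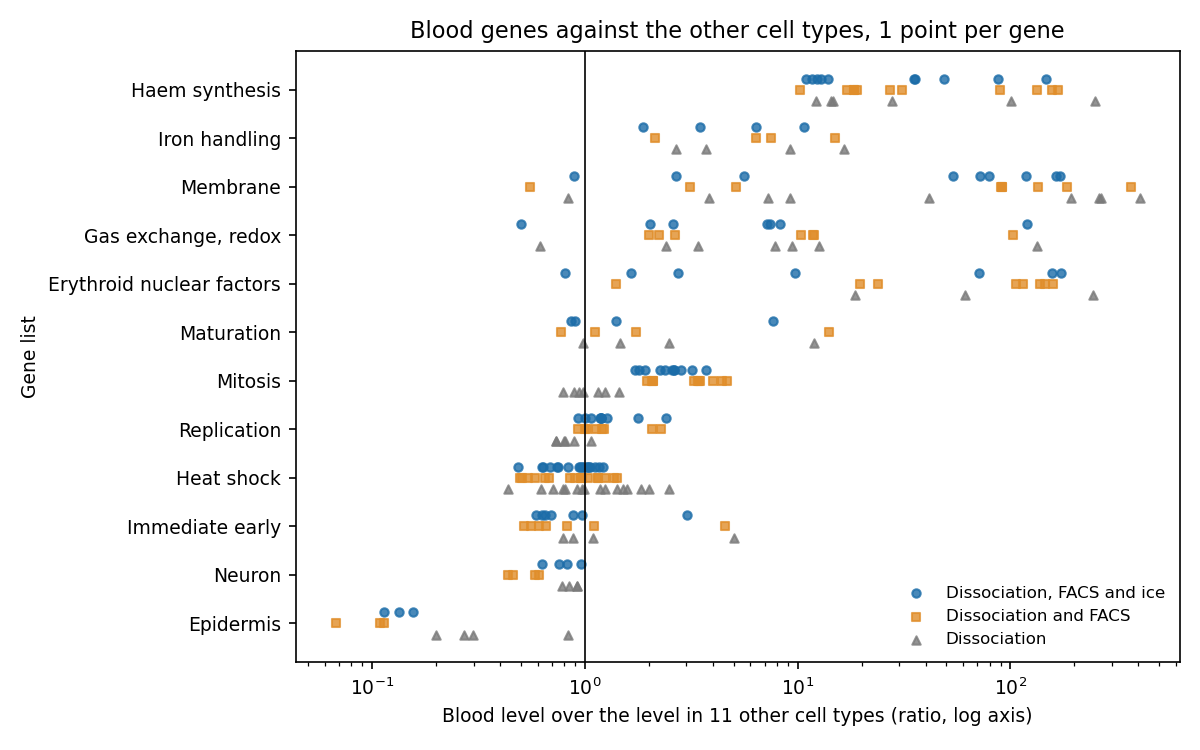
Level in blood over the level in the 11 other cell types (ratio, log axis) for each listed gene with at least 250 blood reads in that library, 1 point per gene and library. Haem synthesis genes lie at 10.3 or above in every library, whereas heat shock genes lie between 0.438 and 2.50.

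The blood tables also held RNA that marks other cell types. The 4 muscle markers summed to 58.0 RPM in the FACS-and-ice library, 20.1 in the FACS library and 2600 in the dissociation library. The paper reports that muscle cells were depleted in the sorted samples. A muscle cell type besides head muscle was given for the dissociation library only. The 5 epidermis markers summed to 511, 423 and 3105 RPM. Both were thus far higher in the dissociation library, while 4 neuron markers summed to 843, 532 and 694. Whether this RNA plays a part in the results below was not tested; the level of pvalb2, a muscle parvalbumin, is given with the comparison of levels.

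The same held in the other direction. In cells with less than 50% haemoglobin, hbae3 was detected in 98.5% of cells in the FACS-and-ice library, 92.6% in the FACS library and 98.7% in the dissociation library. The 10 haemoglobin genes with 250 reads stood at ratios over the other cell types within a narrow range in each library, between 115 and 167, between 121 and 209, and between 244 and 294.

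Conversion of T to C marks 4sU in RNA after treatment with iodoacetamide. The median T-to-C rate over blood genes was 0.140% in the FACS-and-ice library, 0.0907% in the FACS library and 0.0738% in the dissociation library. This was 1.89 times as high in the FACS-and-ice library as in the dissociation library, and 1.23 times as high in the FACS library. In the 11 other cell types the first ratio lay between 1.18 and 1.87, below that of blood in all of them, and the second lay between 0.842 and 1.34. This place of blood held for the median only. As a mean weighted by reads, the first ratio was 1.04 in blood and higher in all 11 other cell types. With haemoglobin also left out it was 1.17 in blood and higher in 6 of the 11.

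The other 11 substitutions stood nearer to 1 in the first of these ratios. The median A-to-G rate was 0.0817%, 0.0694% and 0.0634% in the FACS-and-ice, FACS and dissociation libraries, so that the FACS-and-ice library stood at 1.29 times the dissociation library. The largest of the other 11 ratios for that comparison was 1.40, for A-to-C. The T-to-C median was not the highest, since that of C-to-T was 0.220%, 0.209% and 0.194%.

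The median moved with the set of genes. Over genes that reached 250 reads in all 3 libraries, the T-to-C medians were 0.112%, 0.0858% and 0.0756% in the FACS-and-ice, FACS and dissociation libraries. Over the 56 blood-marking genes without haemoglobin they were 0.102%, 0.128% and 0.102%, so the order of the libraries over all blood genes was not seen in these genes. Over the other 1222 genes they were 0.112%, 0.0858% and 0.0756%. The mean weighted by reads was 0.257%, 0.244% and 0.247%, nearly flat, and 0.330%, 0.312% and 0.282% without haemoglobin.

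**Figure D3:**
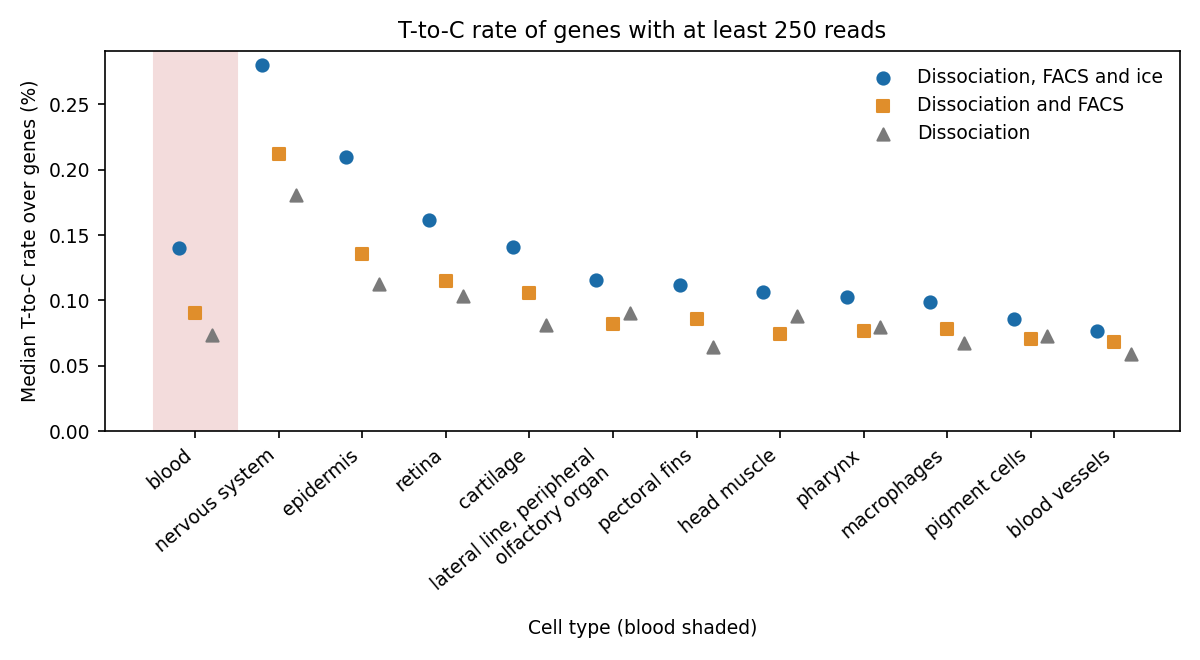
Median T-to-C rate (%) over genes with at least 250 reads in each of the 12 cell types found in all 3 libraries, 1 point per library, with blood shaded. Blood reads 0.140%, 0.0907% and 0.0738% in the FACS-and-ice, FACS and dissociation libraries, and the nervous system is highest at 0.280%, 0.212% and 0.181%.

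A transcript was called labelled by the authors when it carried at least 2 T-to-C changes. Labelled entries over reads, without haemoglobin, came to 0.432% in the FACS-and-ice library, 0.159% in the FACS library and 0.255% in the dissociation library. This was 1.69 and 0.624 times the dissociation library in the FACS-and-ice and FACS libraries. With haemoglobin kept the first ratio turned to 0.863, with 6.44% in the FACS-and-ice library and 7.46% in the dissociation library. Only the nervous system was higher in the sorted libraries, at 0.488% and 0.169%. No other cell type was higher in the dissociation library, where the others lay between 0.171% and 0.251%. There the counting intervals of blood (0.2507% to 0.2592%) and the nervous system (0.2495% to 0.2520%) overlapped. This rank is over reads, and reads per UMI are not given for the other cell types. At 1 UMI per gene and cell, haemoglobin-rich cells lay below the remaining cells in every library, as given below. The genes were not matched between these sets of cells.

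The labelled percentage over reads cannot be taken as a share of molecules. Its denominator counts amplified reads, and the unit of the labelled entries is not settled. For hbae1 in the FACS library, labelled entries came to 34.9% of 7859936 reads, which exceeds its 582034 UMIs in haemoglobin-rich cells. Blood genes had a median of 7.01, 12.1 and 7.21 reads per UMI of haemoglobin-rich cells in the FACS-and-ice, FACS and dissociation libraries. The reads are of the authors' blood cluster and the UMIs of cells set by haemoglobin, so this quotient also moves with the cells in each set. The low labelled percentage of the FACS library came together with the largest quotient, whose part was not tested. Labelled percentages are compared below mainly between genes of 1 library.

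At 10% or more, 25 of 1974 genes (1.27%) were highly labelled in the FACS-and-ice library, 6 of 1666 (0.36%) in the FACS library and 8 of 1456 (0.549%) in the dissociation library. In all, 29 genes passed in any library, and hbae1 and her15.1 passed in all 3. Only 12 of the 29 had 250 reads in all 3 libraries, and of these 12, hbae1 alone stood 4-fold above the other cell types in every library, against 5.12% of all genes with such reads.

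The haemoglobin gene hbae1 had a labelled percentage of 38.9%, 34.9% and 43.2% in the FACS-and-ice, FACS and dissociation libraries. This percentage was not particular to blood. In the 11 other cell types the median for hbae1 was 34.1%, 35.2% and 42.2%, and blood stood above 8, 5 and 7 of them. The symbol hbae1 covers 2 gene IDs whose reads cannot be told apart here, so its substitutions are uncertain. Other chains were far lower, with 0.00352%, 0.00254% and 0.00360% for hbae3 and 1.85%, 1.78% and 0.773% for hbbe1.1. The gene hbbe3 had a T-to-C rate of 0.272%, 0.190% and 0.0681% but a labelled percentage of only 0.0431%, 0.00998% and 0.0150%.

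Outside haemoglobin, cahz, rhag and ferritin-like genes had the highest labelled percentages among the red-cell genes. No filter for single nucleotide polymorphisms is stated for these data, so T-to-C variants were not separated from 4sU in these values. The carbonic anhydrase cahz had 9.16% (95% Clopper-Pearson interval 8.70 to 9.65) in the FACS-and-ice library, 3.39% (3.14 to 3.65) in the FACS library and 6.38% (5.93 to 6.85) in the dissociation library. Its T-to-C rate was 1.67%, 1.70% and 1.45%, against an A-to-G rate of 0.220%, 0.148% and 0.128%. The ammonia channel gene rhag had 8.76%, 3.26% and 10.3%. These percentages were not particular to blood. In the 2 other cell types with 250 rhag reads they were 11.4% to 12.0%, 2.45% to 4.17% and 8.57% to 9.59%. For cahz, blood stood above 1 of 3, 2 of 3 and 1 of 2 other cell types with 250 reads. The nervous system was highest for cahz, at 12.4%, 5.04% and 7.35%. The ferritin-like gene zgc:109934 had 6.27%, 4.25% and 1.88%, above cahz and rhag in the FACS library only.

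The 6 erythroid lists had a median labelled percentage of 0.0745%, 0% and 0.00758%, against 0.0989%, 0% and 0% over all genes with 250 reads outside haemoglobin. Their pooled percentage was 1.34%, 0.370% and 0.596%, against 0.388%, 0.141% and 0.223%. The percentages were 0.229%, 0.190% and 0.109% for alas2, and 0.0781%, 0% and 0% for slc4a1a from 5120, 8367 and 4511 reads. They were 0.0169%, 0.00543% and 0% for hemgn. The 0 labelled entries of slc4a1a allow a percentage of up to 0.0359% in the FACS library and 0.0665% in the dissociation library, taken as 3 entries. The factor lmo2 reached 2.26%, 0.299% and 1.25%, and fth1a reached 1.08%, 0.0580% and 0.205%.

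Heat shock genes, which encode chaperones that refold proteins, were labelled well above most blood genes. Their pooled labelled percentage was 5.58% in the FACS-and-ice library, 3.23% in the FACS library and 3.15% in the dissociation library, against 0.388%, 0.141% and 0.223% over all blood genes with 250 reads outside haemoglobin. The chaperone gene hsp70.2 led with 15.7%, 9.13% and 9.95%, followed by hsp70.1 with 14.0%, 8.97% and 8.82%. The cochaperone dnajb1b had 9.63%, 2.04% and 10.0%, and hsp90aa1.2 had 5.59%, 1.63% and 4.59%. The list was uneven, with a median of 2.82%, 0.725% and 0.809%, against 0.0989%, 0% and 0% over all genes. The gene hspa8 had only 0.257%, 0.115% and 0.121%, below the pooled percentage of all genes in each library.

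Blood was not at the top of the cell types for these genes. For hsp70.1, blood stood above 2, 6 and 1 of the 11 other cell types in the FACS-and-ice, FACS and dissociation libraries. For hsp70l, it stood above 2, 3 and none of them, with 9.97%, 4.84% and 6.25% in blood. The level of the heat shock genes in blood was 0.958, 0.962 and 1.09 times that in the other cell types at the median.

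The immediate-early gene fosab, a subunit of the AP-1 factor, had 12.3% in the FACS-and-ice library and 3.16% in the FACS library, from 309 and 253 reads, and missed the minimum in the dissociation library. The partner gene jun had 4.41%, 1.52% and 2.17%. The 7, 7 and 4 immediate-early genes with 250 reads had a median labelled percentage of 3.09%, 0.597% and 0.403%. Their pooled percentage was 1.57%, 0.275% and 0.195%, against 0.388%, 0.141% and 0.223% over all blood genes with 250 reads outside haemoglobin. By the pooled value the list thus lay below all genes in the dissociation library. The Notch target genes her15.1 and her15.2 reached 39.2% and 38.0% in the FACS-and-ice library. They belong to a list of 12 genes taken to have high turnover, which was not measured here. Its 8, 6 and 3 genes with 250 reads had a pooled percentage of 24.7%, 16.7% and 12.1%. The list holds her genes and pclaf, which the paper already reports as highly labelled, so this percentage is a description and no test. The neural genes her15.1 and her15.2 had a blood level 0.862 and 0.828 times that of the other cell types in the FACS-and-ice library. The gene rps15a, a ribosomal gene found everywhere, reached 11.3%, 3.45% and 11.9%.

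**Figure D4:**
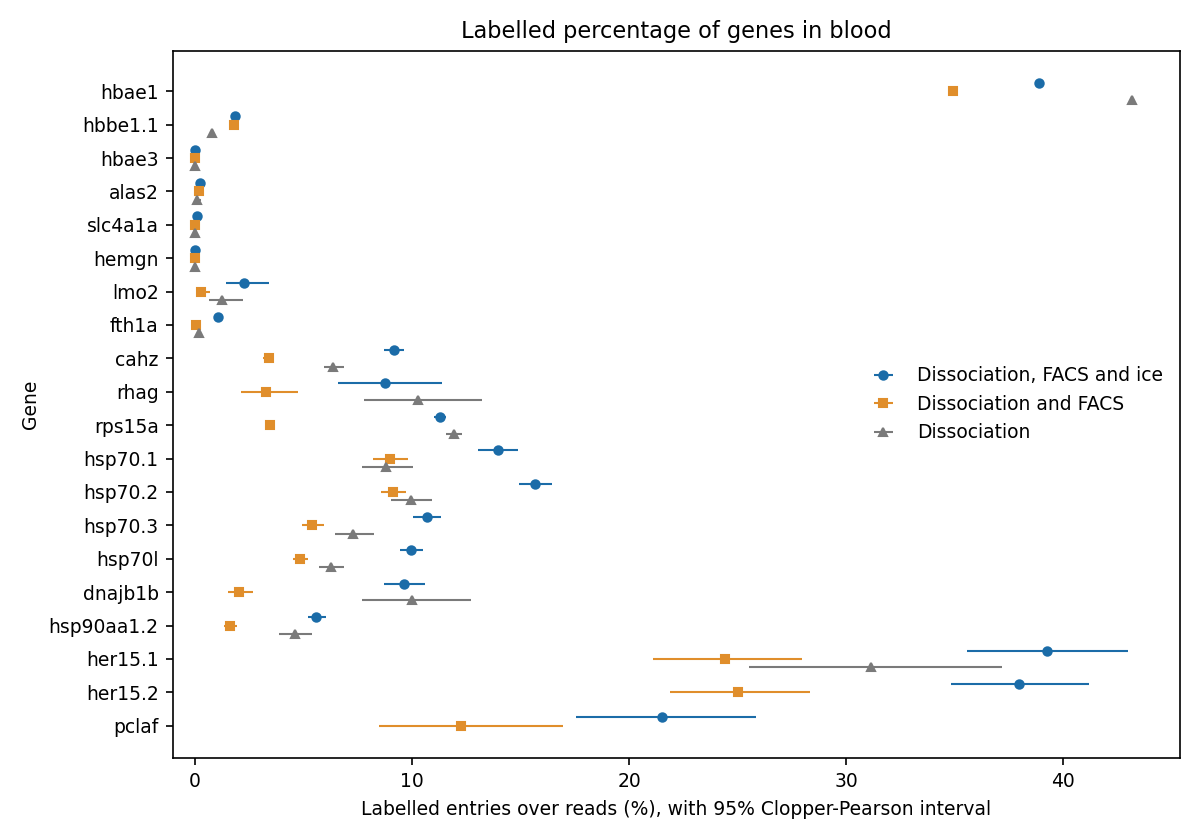
Labelled entries over reads (%) in blood for named genes, 1 point per library with the 95% Clopper-Pearson interval, which covers counting error only and is often smaller than the point. hbae1 lies between 34.9% and 43.2%, whereas hbae3, alas2, slc4a1a and hemgn lie at or below 0.229%.

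Levels of single genes in blood were compared between libraries on the same scale. Of 1333 genes with 250 reads in both, 15 (1.13%) were at least 2-fold higher and 29 (2.18%) at least 2-fold lower in the FACS-and-ice library than in the dissociation library. Of 1313 genes, 20 (1.52%) were higher and 67 (5.1%) lower in the FACS library than in the dissociation library. Of 1534 genes, 28 (1.83%) were higher and 8 (0.522%) lower in the FACS-and-ice library than in the FACS library. Per 1000000 of all blood reads, haemoglobin included, 68 genes were higher and 18 lower in the FACS-and-ice library, and 13 higher and 116 lower in the FACS library, than in the dissociation library.

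The median ratio over all these genes was 0.949, 0.847 and 1.11 in the 3 comparisons, or -0.08 and -0.24 on the log2 scale for those over the dissociation library, and the list medians below stand beside it. All 3 comparisons share libraries, so none is a check of another. In UMIs of cells rich in haemoglobin, 6 of the 15 genes higher and 13 of the 29 lower in the FACS-and-ice library than in the dissociation library were also past 2-fold. For the FACS library these were 5 of 20 and 35 of 67. Haemoglobin-rich cells were set by a haemoglobin share of at least 50% and need not be the cells of the authors' blood cluster. A UMI ratio is thus no second measure of the same cells.

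Muscle genes were the furthest below. As given above, muscle cells were depleted in the sorted samples. A change in blood cells and a change in RNA from muscle cells cannot be told apart here. The level of pvalb2 was 48.3 in the FACS-and-ice library and 49.9 in the FACS library, against 3912 RPM in the dissociation library, or 0.0123 and 0.0127 times as high. The actin gene actc1b had 65.9 and 45.0, against 3263 RPM. In UMIs of haemoglobin-rich cells the ratios of pvalb2 were 0.0141 and 0.00970, so they were similarly far below 1. In the dissociation library pvalb2 was detected in 96.1% of haemoglobin-rich cells and 96.9% of the remaining cells.

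Epidermal keratins were far lower by reads in both sorted libraries, and the UMIs of haemoglobin-rich cells differed from gene to gene. The level of krt4 was 155 in the FACS-and-ice library and 152 in the FACS library, against 1053 RPM in the dissociation library, or 0.148 and 0.144 times as high. In UMIs of haemoglobin-rich cells, which need not be the cells of the blood cluster, its ratios were 1.26 (1.16 to 1.36) and 1.00 (0.909 to 1.11). These intervals cover counting error only and not this difference in cells. Yet krt4 was detected in 40.4% and 20.9% of the haemoglobin-rich cells, against 68.0% in the dissociation library. In the FACS library 684 UMIs lay in 65 cells, 49 of which held 1. The keratin krtt1c19e was lower in both measures, at 0.166 and 0.151 times by reads and 0.280 (0.227 to 0.343) and 0.399 (0.314 to 0.503) times by UMIs.

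The ribosomal protein genes rpl38 and rps29 were among the furthest above. The level of rpl38 was 3653 in the FACS-and-ice library and 5999 in the FACS library, against 1409 RPM in the dissociation library, or 2.59 and 4.26 times as high. That of rps29 was 2.26 and 3.86 times as high. In UMIs the ratios were 1.65 and 1.93 for rpl38 and 1.39 and 1.70 for rps29, all under 2-fold.

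Among red-cell genes no member of the 6 erythroid lists passed 2-fold in either comparison with the dissociation library, of 32 and 31 tested, against 3.3% and 6.63% of all genes in either direction, so these counts are near those of all genes. Their median ratio was 0.792 in the FACS-and-ice library and 1.09 in the FACS library over the dissociation library, and 1.04 and 0.953 when levels were set per 1000000 of all blood reads, haemoglobin included, so its direction turned with the scale. It was 0.748 for the FACS-and-ice library over the FACS library, where 4 of 38 lay above 1. In that comparison 1 of the 38, epb41a, passed 2-fold at 2.31 times, against 1.83% of all genes at least 2-fold higher. The level of slc4a1a was 0.785 and 1.302 times, and that of alas2 0.827 and 1.31 times, the dissociation library.

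Of the 51 erythroid genes under 250 reads in the dissociation library, those with at least 20 UMIs in the 2 libraries compared were counted by UMIs, a count added after the data were seen. In the FACS-and-ice library 9 of 27 were at least 2-fold higher than in the dissociation library, against 10.6% of all 3440 such genes. In the FACS library 8 of 22 were, against 6.67% of 2293, and no erythroid gene was 2-fold lower in either. Choosing genes that are low in the dissociation library favours higher ratios, and a gene could reach 20 UMIs through the sorted library alone. Whether this acts equally on the erythroid lists and on all genes was not tested, so these counts are a description and no test. Among erythroid genes with 250 reads in both libraries, the median UMI ratio was 0.953 in the FACS-and-ice library and 1.22 in the FACS library. In haemoglobin-rich cells the UMI ratio of the haem enzyme gene cpox was 4.28 (2.74 to 6.96) in the FACS-and-ice library and 3.11 (1.88 to 5.32) in the FACS library over the dissociation library. That of hmbsa was 2.62 (1.86 to 3.75) and 2.26 (1.53 to 3.38), and that of gata1a was 2.18 and 2.54. These 3 genes were picked from those higher in both, and their intervals do not allow for this choice. By reads, the zinc finger gene znfl2a was 1.38 and 1.83 times as high and si:ch211-250g4.3 was 2.01 and 2.56 times as high.

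Genes of cell division were also compared. In blood the median level of the mitosis genes was 2.57, 3.40 and 0.976 times that of the other cell types. These values are for the FACS-and-ice, FACS and dissociation libraries. The sorted libraries had separate tables for a proliferative region and a proliferating pharyngeal arch, which the other cell types leave out. The dissociation library had no such tables. The reference therefore differs between the libraries, and these ratios cannot show a change in blood. The ratio of the level of cdk1, the kinase that drives mitosis, was 1.47 and 1.75 over the dissociation library, and that of ccnb1, its cyclin, was 1.42 and 1.88. None of 7 mitosis genes tested passed 2-fold in either comparison, with medians of 1.101 and 1.41.

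Of 15 heat shock genes tested, 13 lay above 1 in the FACS-and-ice library over the dissociation library and 10 in the FACS library, with medians of 1.37 and 1.39. Over all genes 580 of 1333 and 372 of 1313 lay above 1. In the first comparison 2 heat shock genes were at least 2-fold higher, against 1.13% of all genes, and in the second 1 was, against 1.52%. The level of dnajb1b was 477 in the FACS-and-ice library and 318 in the FACS library, against 107 RPM in the dissociation library, or 4.47 and 2.98 times as high. That of hsp90aa1.2 was 2.86 and 1.61 times as high.

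In UMIs of haemoglobin-rich cells, dnajb1b was 2.34 and 2.02 times as high, and hsp90aa1.2 was 2.15 (1.92 to 2.42) and 1.38 (1.201 to 1.59) times. The level of hsp70.1 was 1.67 and 1.48 times as high by reads, and 1.42 and 1.598 times by UMIs. The 4 immediate-early genes tested had medians of 0.789 and 0.922, with jun at 1.71 and 1.17 and nfkbiab at 0.703 and 0.522. Over heat shock and immediate-early genes together, 19 genes, the medians were 1.35 and 1.17.

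**Figure D5:**
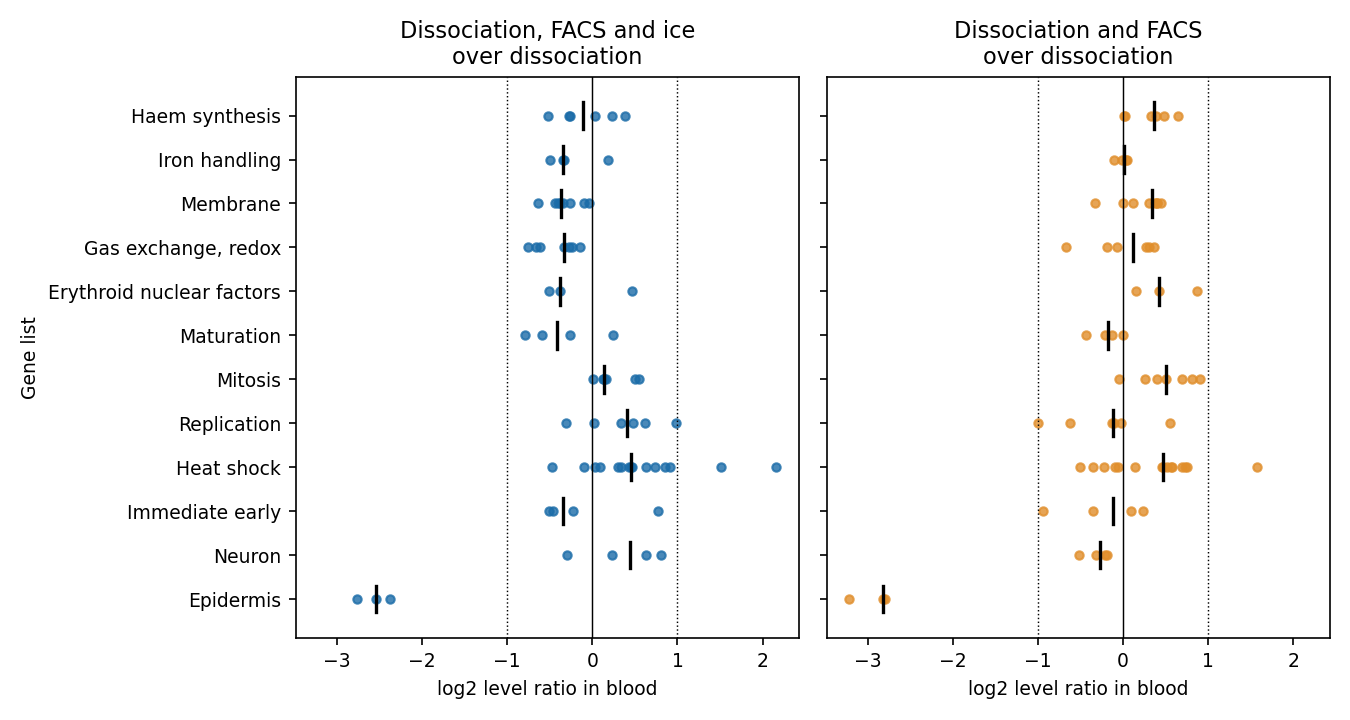
Log2 ratio of the blood level over the dissociation library for each listed gene with at least 250 reads in both libraries, with the FACS-and-ice library on the left and the FACS library on the right. Black bars are list medians and dotted lines mark 2-fold; epidermis genes lie far below, and dnajb1b is the highest heat shock gene at 4.47-fold and 2.98-fold.

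Single cells were described by their haemoglobin, since the files used here do not tie cells to the authors' clusters. Cells with at least 50% of UMIs from haemoglobin numbered 542 of 9550 in the FACS-and-ice library, 311 of 4609 in the FACS library and 459 of 11043 in the dissociation library, or 5.68%, 6.75% and 4.16%. This class is a range of a score and not a type, and 80, 30 and 46 cells lay between 40% and 60%. The FACS-and-ice and dissociation libraries shared 28 barcodes, the FACS and dissociation libraries 11, and the FACS-and-ice and FACS libraries 12, and doublets were not removed.

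The haemoglobin-rich cells had a median of 7653, 9194 and 9506 UMIs, against 3882, 2986 and 2291 in the remaining cells of the FACS-and-ice, FACS and dissociation libraries. Their UMIs were 79.3%, 84.2% and 81.9% haemoglobin, against 1.73%, 1.75% and 1.91%.

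To hold the number of molecules fixed, labelling was read in pairs of a gene and a cell with exactly 1 UMI, without haemoglobin. In haemoglobin-rich cells 2.00% (1.94 to 2.07) of 178984 pairs were labelled in the FACS-and-ice library, 1.68% (1.599 to 1.77) of 88558 in the FACS library and 1.44% (1.38 to 1.503) of 156212 in the dissociation library. In the remaining cells the shares were 2.49%, 2.23% and 1.73%. Haemoglobin-rich cells were thus below the remaining cells in every library, and here the FACS library lay above the dissociation library, in contrast to the labelled percentage over reads. The pairs were summed over all genes, so the mix of genes can differ between the sets of cells, and its part was not tested. The quotient of reads and UMIs given above also differed between the libraries, and its part in this order was not tested.

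Among cells in which it was detected, cahz was labelled in 277 of 455 haemoglobin-rich cells of the FACS-and-ice library, 203 of 281 of the FACS library and 252 of 444 of the dissociation library, or 60.9%, 72.2% and 56.8%. At 1 UMI the labelled shares of cahz were 31.0%, 31.4% and 35.9%, against 27.1%, 32.1% and 25.3% in the remaining cells. In haemoglobin-rich cells these were only 22 of 71, 11 of 35 and 14 of 39 cells, so small differences are uncertain. Only 5.46%, 4.28% and 6.46% of the remaining cells held cahz at all.

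The gene rhag was labelled in 37 of 116, 26 of 73 and 34 of 82 haemoglobin-rich cells that held it. By contrast, hemgn was labelled in 2 of 457, 1 of 272 and 0 of 437 such cells. In the dissociation library 0 of 437 cells allows a share of up to 0.686%.

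Labelling of hsp70l was common in these cells but less so than in the rest. The gene hsp70l was labelled in 58.3%, 70.9% and 48.6% of the haemoglobin-rich cells that held it, against 80.8%, 81.9% and 54.8% of the remaining cells. At 1 UMI the labelled shares of hsp70l were 23.6% (21 of 89), 23.7% (9 of 38) and 19.7% (14 of 71), against 36.9%, 46.7% and 28.2% in the remaining cells. Those of hsp70.2 were 21.6% (22 of 102), 35.9% (23 of 64) and 25.6% (31 of 121), against 42.0%, 47.7% and 25.3%. For this gene the dissociation library thus showed no lower share.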

How the data were processed

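Libraries were made with the 10x 3' single-cell chemistry. The authors aligned reads with Cell Ranger 6.1.1 to GRCz10, clustered the cells, counted reads per gene and cluster, and called substitutions at a base quality of at least 20. No filter for single nucleotide polymorphisms is stated for these data. The deposited values are counts of reads or labelled entries per gene, substitution rates that the authors give as a ratio per base, UMI count matrices and lists of labelled genes per cell.

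Blood tables had 31693211, 46580002 and 28689773 reads in the FACS-and-ice, FACS and dissociation libraries. Genes needed 250 reads; joined names held 0.230%, 0.157% and 0.180% of reads and were left out. Levels are reads per 1000000 (RPM) without haemoglobin and joined names, and a fold of 2 or more was counted. The other cell types are the 11 others found in all 3 libraries, summed. UMI ratios carry exact conditional intervals at 95%.

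Members, gene lists and comparisons were chosen with earlier results of these data known. Named genes were list members, the 10 highest labelled percentages per library, the 10 largest and smallest level ratios per comparison, and the 15 genes furthest above other cell types; not all are printed. Lists used the symbols of the files, with 0 columns of other samples. RefSeq synonyms (assembly GRCz12tu) served for names only. Scripts were tested on simulated data with Python 3.11.15, pandas 2.3.3 and scipy 1.17.1.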

Additional observations from a re-analysis of the deposited data

Results flagged for a closer look

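Names that join several genes were outside the comparisons, and they carried labelled entries above the limit that a count of 0 allows. In blood their labelled percentage was 2.19% (95% Clopper-Pearson interval 2.09 to 2.30) in the FACS-and-ice library, 2.13% (2.02 to 2.23) in the FACS library and 2.08% (1.96 to 2.21) in the dissociation library. These were 207, 139 and 162 names with 72801, 73138 and 51594 reads. With 1 library per group, no search for a library far from others of its group was possible.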

How the results depend on the processing

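No paired analysis was possible because each group has 1 library. Of 85 recomputed values, 70 were marked as moved, 11 as not moved and 4 as changed in direction. These marks do not all rest on counting error, since medians and counts of genes have no counting interval here. Values for the FACS-and-ice library over the dissociation library stand before those for the FACS library over it.

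The haemoglobin share by UMIs was 79.3%, 84.2% and 81.9% in the FACS-and-ice, FACS and dissociation libraries. The ratio of median T-to-C rates became 1.97 and 1.24 at 100 reads, 1.46 and 1.05 at 1000 reads, 1.48 and 1.13 over shared genes, 1.04 and 0.989 as a mean weighted by reads, and 1.17 and 1.11 when haemoglobin was also left out. With A-to-G rates taken off no ratio could be had, since the medians were 0.0195%, 0.00022% and -0.00096%, and a median labelled percentage per gene gave none either, being 0 in the FACS and dissociation libraries. The labelled share gave 1.65 and 0.652 with joined names, and 0.863 and 0.857 with haemoglobin kept, which reversed the first.

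Highly labelled genes numbered 51, 13 and 21 at 5%, in the FACS-and-ice, FACS and dissociation libraries. At 20% they were 7 in the first and 3 in the last, at 1000 reads 5, 1 and 4, and at 100 reads 12 in the FACS library and 15 in the dissociation library.

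Genes 2-fold higher and lower in the FACS-and-ice library numbered 73 and 86 at 100 reads, 4 and 7 at 1000 reads, and 68 and 18 per 1000000 of all blood reads, with 1 and 17 at 3-fold. In the FACS library they numbered 48 and 166, 10 and 25, and 13 and 116, with 3 and 29 at 3-fold, and 11 and 44 by UMIs. The scale of the median ratio gave 32 higher. The higher share of calls was 34.1% and 22.99% as reported, 79.1% and 10.1% per 1000000 of all reads, and 44.4% and 41.6% on the median ratio. By UMIs it was 46.5% and 20.0%, and at 100 reads 45.9% and 22.4%.

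The stress list median became 1.25 and 1.01 at 100 reads, 1.39 and 1.48 at 1000 reads, 1.77 and 1.03 per 1000000 of all reads, 1.42 and 1.38 on the median ratio, and 1.28 and 1.22 by UMIs. That of the erythroid lists became 0.831 and 1.105, 0.787 and 1.03, 1.04 and 0.953, 0.835 and 1.28, and 0.953 and 1.22 in the same order. The direction of the erythroid median thus turned when haemoglobin was part of the total. The scale of all reads moved the median of all genes to 0.31 and -0.43 on the log2 scale.

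The labelled share at 1 UMI was 2.16% and 1.81% in the FACS-and-ice and FACS libraries for cells of at least 30% haemoglobin. It was 1.79%, 1.59% and 1.37% at 70%, and 3.26%, 2.97% and 2.14% over all pairs, in the FACS-and-ice, FACS and dissociation libraries. Genes near 250 reads, and labelled counts of a few entries, are limited by depth.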
